A study of Mus musculus with 12 samples.

Results

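The transcripts described here come from 46 mouse genes that act in making ribosomes: Myc, which drives many of them, 3 genes of RNA polymerase I, 7 genes of the small nucleolar ribonucleoproteins (snoRNPs), 7 nucleolar chaperones and organisers, 12 genes of small subunit processing and 16 genes of large subunit processing. They were chosen by symbol from what their proteins do, with earlier results of these data known. All 46 were found once each among the 45859 genes in the files. RNA-Seq was carried out on lens capsules and the lens cells (LCs) attached to them, taken at 0 or 24 hours post cataract surgery (PCS) from 2 month old adult mice, with 3 libraries in each of 4 groups. Wild-type (WT) mice were C57BL/6. The β8 integrin conditional knockouts (β8ITG-cKO) were of mixed C57BL/6 and 129S1/Sv background and carried a floxed Itgb8 that a lens-specific Cre transgene deletes, so genotype and strain cannot be told apart. Every group had the lens fiber cells removed, the 0 hour groups being harvested straight afterwards, and each library pooled capsules from several lenses.

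Ribosomes are built mainly in the nucleolus, where RNA polymerase I transcribes ribosomal DNA into a long precursor. Box C/D snoRNPs place methyl groups on that precursor, box H/ACA snoRNPs convert uridines to pseudouridine, and large assemblies of processing factors fold and cut it into the RNAs of the small and large subunits. Cells that leave rest to grow and divide are known to increase this work, and MYC is a well-known activator of its genes. Most LCs of the adult lens are quiescent, and they enter the cell cycle after lens injury.

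Levels are given as FPKM, which scales the fragments of a gene by its length and by the library's mapped total, so they can be compared between genes. Values in a sentence run from replicate 1 to replicate 3. A fold is a ratio of mean FPKM, whereas a log2 change is a difference of mean log2(FPKM + 1), later minus earlier or β8ITG-cKO minus WT, with its standard error (SE) from limma-trend. A gene passed the test when its Benjamini-Hochberg adjusted p over all genes tested was at most 0.05. Genes were tested when they averaged 0.5 FPKM or more in a comparison, which left out Rrp12 everywhere (0.05 to 0.27 FPKM) and Rrp1b between the genotypes at 0 hours.

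Several facts of the libraries bear on these values. Summed FPKM ran from 446531 to 740140 per library and relative depth, read from the steps between low FPKM, from 0.865 to 1.08. Lens epithelium markers were present in all 12 libraries, at 11560 to 43118 summed FPKM over 8 genes. These were Foxe3, Pax6, Cdh1, Prox1, Pitx3, Mab21l1 and the crystallin genes Cryaa and Cryab. Such a sum can rest on a few abundant genes, so it does not measure the amount of epithelium. In WT 0 hour replicate 2, 7 of these 8 were above 0. The 10 retina markers summed to 140 to 1180 FPKM in the WT 0 hour libraries, where replicate 2 was the high one, to 74.7 to 141 FPKM in WT at 24 hours, to 182.8 to 336 FPKM in β8ITG-cKO at 0 hours and to 870 to 1018 FPKM in β8ITG-cKO at 24 hours. In the WT 24 hour group, 6 corneal epithelium markers summed to 13.97, 4.80 and 56.9 FPKM, so replicate 3 stood apart. Itgb8 had 4.58 to 11.8 FPKM in all libraries, but these values cover the whole gene rather than its floxed fragment and so do not check the labels. In bulk RNA, fewer cells of a type and less RNA per cell cannot be told apart.

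Ribosome biogenesis genes rose in LCs of both genotypes by 24 hours PCS. In WT, 37 of the 45 members tested were higher at 24 hours and 0 were lower, compared with 20.9% of all genes tested higher and 8.81% lower. In β8ITG-cKO, 38 of 45 were higher and 0 were lower, compared with 35.4% of all genes higher and 10.7% lower. At an unadjusted p under 0.05, 41 members in WT (29% of all genes higher) and 40 in β8ITG-cKO (40.7%) passed, all of them higher at 24 hours. The median member changed by 1.14 on the log2 scale in WT (all genes tested, 0.16) and by 0.69 in β8ITG-cKO (all genes tested, 0.23). Since the median of all genes itself moved by over 0.1, the libraries were also rescaled to the same median. That gave 34 members higher and 0 lower in WT (median 0.89, all genes -0.05), compared with 14.4% of all genes higher. In β8ITG-cKO it gave 28 higher and 0 lower (median 0.47), compared with 21.3% of all genes higher. All 3 WT values at 24 hours lay above all 3 at 0 hours for 42 of the 45 members tested (31.3% of all genes), and the same held in β8ITG-cKO for 39 of 45 (42.9% of all genes). With the study's own criteria added, a fold over 2, a difference over 2 FPKM and a level of at least 2 FPKM, 33 members passed in WT (10.3% of all genes) and 16 in β8ITG-cKO (11.3%). Leaving out WT 0 hour replicate 2, the library with the most retinal transcripts, left 34 members higher in WT (15.8% of all genes). The count was 31 without WT 24 hour replicate 2 (12.9% of all genes) and 42 without WT 24 hour replicate 3 (24.7%). Markers of other cells moved over the same 24 hours. Neutrophil markers went from 0.714 to 1.28 summed FPKM to 48.1 to 71.1 in WT and from 0.637 to 1.57 to 15.1 to 41.0 in β8ITG-cKO, with Ly6g listed at 0 in all 4 groups. Lens fiber markers went from 1985 to 2304 down to 200.4 to 350.1 summed FPKM in WT and from 1768 to 2386 down to 204.7 to 292.5 in β8ITG-cKO. Lens epithelium markers, whose sum can rest on a few abundant genes, went from 40372 to 43118 down to 11560 to 14026 summed FPKM in β8ITG-cKO. In WT the groups overlapped through 0 hour replicate 2, which summed to 13551 FPKM with 7 of 8 markers above 0. The other WT 0 hour libraries summed to 40349 and 34540 FPKM, and the WT 24 hour libraries to 17930 to 21579 FPKM. By the test, 6 of 6 neutrophil markers rose in WT and 5 of 5 in β8ITG-cKO. Lens fiber markers fell for 9 of 9 in each genotype. Lens epithelium markers fell for 4 of 8 in WT, where 1 rose, and for 7 of 8 in β8ITG-cKO. Retina markers rose for 10 of 10 in β8ITG-cKO, whereas in WT 0 of 10 rose and 1 fell. Macrophage markers rose for 1 of 6 tested in WT and 4 of 7 in β8ITG-cKO, and 0 fell. What part any of these markers had in the change of the ribosome biogenesis genes was not tested. The comparisons within WT and within β8ITG-cKO share no library. In both, 35 members passed. The share of all genes that passed in both was not counted, so this number cannot be set against a background. Bop1 and Dkc1 passed in WT but not in β8ITG-cKO, whereas Myc, Rrp1b and Wdr74 passed in β8ITG-cKO but not in WT. The mean fold ran from 1.34 to 3.94 in WT over the 45 members tested, with a median of 2.49. In β8ITG-cKO it ran from 0.956 to 13.5 with a median of 1.82, and for 40 of these 45 members the WT fold was the larger.

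**Figure D1:**
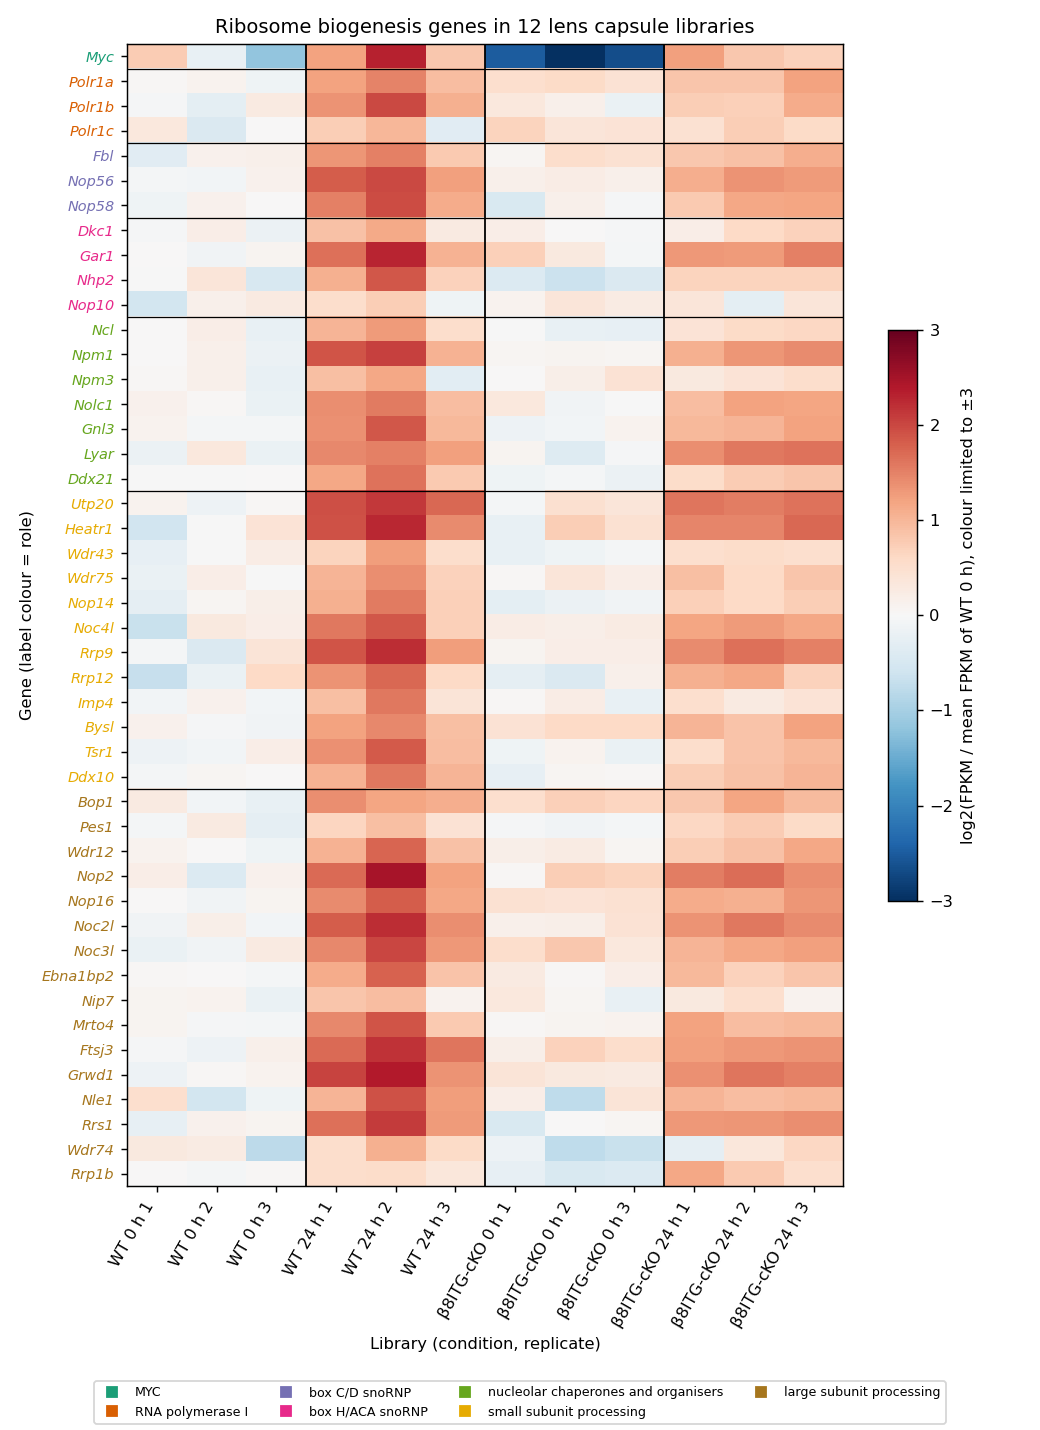
Level of each of the 46 genes (rows, grouped by role, label colour) in each of the 12 libraries (columns), as log2 of FPKM over the mean FPKM of the 3 WT 0 h libraries, with red above and blue below. Nearly every row turns red in the 24 h columns of both genotypes, WT 24 h replicate 2 is the darkest, and Myc is the blue row at the top of the β8ITG-cKO 0 h columns, where replicate 2 lies beyond the end of the colour scale.

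MYC is a transcription factor that activates growth and ribosome genes, and its own transcript showed the widest range of all. Myc had 11.65, 5.83 and 3.03 FPKM at 0 hours and 15.69, 33.81 and 11.92 FPKM at 24 hours in WT. In β8ITG-cKO it had 1.21, 0.60 and 1.09 FPKM at 0 hours and 16.09, 11.90 and 11.10 FPKM at 24 hours. The WT 0 hour libraries were widely scattered, all WT 24 hour libraries lay above them, and the β8ITG-cKO 0 hour libraries were the lowest of the 12. In WT the mean rose 2.995-fold, with a log2 change that just missed the threshold (log2 change 1.48, SE 0.48, adjusted p = 0.0504). Over the alternatives tried the adjusted p ran from 0.0119 to 0.147. It was 0.0308 without WT 0 hour replicate 1 and 0.0346 without WT 24 hour replicate 3, and 0.147 without WT 24 hour replicate 2, whose 33.81 FPKM was the highest value. In β8ITG-cKO the rise was 13.5-fold (log2 change 2.83, SE 0.18, adjusted p = 3.06e-05), and it was past the threshold under every alternative tried.

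RNA polymerase I makes the ribosomal RNA precursor. Polr1a, its largest subunit, had 5.10, 5.35 and 4.55 FPKM at 0 hours and 11.6, 14.1 and 9.55 FPKM at 24 hours in WT and 7.14, 7.40 and 6.78 FPKM at 0 hours and 8.93, 8.95 and 11.5 FPKM at 24 hours in β8ITG-cKO. Polr1b, the second largest subunit, had 1.29, 1.09 and 1.60 FPKM at 0 hours and 3.40, 5.26 and 2.79 FPKM at 24 hours in WT and 1.65, 1.48 and 1.15 FPKM at 0 hours and 2.204, 2.19 and 2.85 FPKM at 24 hours in β8ITG-cKO. For both genes the 24 hour libraries of a genotype lay above its 0 hour libraries, and both passed in each genotype. Polr1a rose 2.35-fold in WT (log2 change 1.07, SE 0.17, adjusted p = 0.00383) and 1.38-fold in β8ITG-cKO (log2 change 0.40, SE 0.12, adjusted p = 0.0262). Polr1b rose 2.88-fold in WT (log2 change 1.02, SE 0.22, adjusted p = 0.0121) and 1.69-fold in β8ITG-cKO (log2 change 0.49, SE 0.14, adjusted p = 0.0237). Polr1c, a subunit that RNA polymerases I and III share, did not pass in either. Its 0 and 24 hour libraries overlapped, with 4.02 FPKM in WT 24 hour replicate 3, under 2 of the 3 WT 0 hour libraries.

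The 3 box C/D snoRNP genes, which encode the methyltransferase fibrillarin and its partners, all rose in both genotypes. Fbl, the methyltransferase itself, had 11.04, 15.4 and 15.6 FPKM at 0 hours and 35.2, 39.8 and 24.02 FPKM at 24 hours in WT and 14.6, 20.2 and 19.1 FPKM at 0 hours and 24.6, 25.9 and 29.8 FPKM at 24 hours in β8ITG-cKO. Nop56 had 13.1, 12.9 and 15.01 FPKM at 0 hours and 47.9, 53.7 and 31.9 FPKM at 24 hours in WT and 15.1, 15.995 and 15.2 FPKM at 0 hours and 29.2, 34.9 and 32.9 FPKM at 24 hours in β8ITG-cKO. Nop58 had 10.4, 12.5 and 11.5 FPKM at 0 hours and 32.8, 44.4 and 24.7 FPKM at 24 hours in WT and 8.40, 12.9 and 11.3 FPKM at 0 hours and 19.9, 25.5 and 25.9 FPKM at 24 hours in β8ITG-cKO. No 24 hour library overlapped a 0 hour library of its genotype for any of the 3, and replicate 2 was the highest and replicate 3 the lowest of the WT 24 hour libraries each time. The WT folds were 2.35 for Fbl (log2 change 1.16, SE 0.22, adjusted p = 0.0076), 3.25 for Nop56 (log2 change 1.60, SE 0.20, adjusted p = 0.00173) and 2.96 for Nop58 (log2 change 1.45, SE 0.21, adjusted p = 0.00298). The β8ITG-cKO folds were 1.49 for Fbl (log2 change 0.56, SE 0.14, adjusted p = 0.0128), 2.095 for Nop56 (log2 change 1.02, SE 0.10, adjusted p = 0.000159) and 2.19 for Nop58 (log2 change 1.07, SE 0.17, adjusted p = 0.00156).

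Of the 4 box H/ACA snoRNP genes, 3 passed in WT and 2 in β8ITG-cKO. Dkc1, the pseudouridine synthase dyskerin, had 6.02, 7.07 and 5.51 FPKM at 0 hours and 11.5, 13.6 and 7.52 FPKM at 24 hours in WT and 7.14, 6.23 and 6.06 FPKM at 0 hours and 7.06, 9.42 and 10.1 FPKM at 24 hours in β8ITG-cKO. Gar1, a core partner, had 2.195, 2.01 and 2.29 FPKM at 0 hours and 6.80, 10.6 and 4.49 FPKM at 24 hours in WT and 3.54, 2.65 and 2.08 FPKM at 0 hours and 5.35, 5.22 and 6.21 FPKM at 24 hours in β8ITG-cKO. Gar1 rose clear of its 0 hour libraries in both genotypes, whereas Dkc1 did so only in WT, as β8ITG-cKO 24 hour replicate 1 fell within the 0 hour range. Dkc1 changed 1.75-fold in WT (log2 change 0.69, SE 0.22, adjusted p = 0.0461) and 1.37-fold in β8ITG-cKO (log2 change 0.39, SE 0.14, adjusted p = 0.0556). Gar1 changed 3.37-fold in WT (log2 change 1.32, SE 0.26, adjusted p = 0.00878) and 2.03-fold in β8ITG-cKO (log2 change 0.83, SE 0.16, adjusted p = 0.00426). Nhp2 rose in both, by 1.18 and 1.08 on the log2 scale. Nop10, the smallest core protein, passed in neither, with log2 changes of 0.36 (SE 0.25) in WT and -0.07 (SE 0.17) in β8ITG-cKO.

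Nucleolar chaperones and organisers held the most abundant members. Ncl, nucleolin, an RNA-binding protein of the nucleolus, had 89.2, 102 and 76.6 FPKM at 0 hours and 181, 218 and 130 FPKM at 24 hours in WT and 88.5, 75.95 and 75.4 FPKM at 0 hours and 118, 133 and 137 FPKM at 24 hours in β8ITG-cKO. Npm1, nucleophosmin, a histone and ribosome chaperone that builds the outer nucleolus, had 62.2, 68.05 and 54.2 FPKM at 0 hours and 229, 256 and 126 FPKM at 24 hours in WT and 64.1, 64.98 and 64.02 FPKM at 0 hours and 128, 154 and 165 FPKM at 24 hours in β8ITG-cKO. At 0 hours Ncl was above Npm1 in each of the 6 libraries, and at 24 hours Npm1 was above Ncl in 5 of 6, all but WT replicate 3. Npm1 changed 3.31-fold in WT (log2 change 1.65, SE 0.27, adjusted p = 0.00418) and 2.32-fold in β8ITG-cKO (log2 change 1.19, SE 0.11, adjusted p = 0.000159). Ncl changed 1.97-fold in WT (log2 change 0.95, SE 0.22, adjusted p = 0.016) and 1.62-fold in β8ITG-cKO (log2 change 0.69, SE 0.11, adjusted p = 0.00166). Npm3, a relative of Npm1, had 7.60, 8.34 and 6.42 FPKM at 0 hours and 13.96, 16.7 and 5.97 FPKM at 24 hours in WT and 7.45, 8.44 and 10.1 FPKM at 0 hours and 9.13, 9.92 and 10.8 FPKM at 24 hours in β8ITG-cKO. Its groups overlapped in both genotypes and it passed in neither.

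The other genes of this role rose too. Nolc1, a chaperone of snoRNPs, had 10.2, 9.59 and 8.12 FPKM at 0 hours and 24.6, 27.3 and 17.8 FPKM at 24 hours in WT and 11.5, 8.66 and 9.25 FPKM at 0 hours and 17.6, 21.5 and 21.1 FPKM at 24 hours in β8ITG-cKO. Gnl3, the nucleolar GTPase nucleostemin, had 4.87, 4.33 and 4.31 FPKM at 0 hours and 11.7, 16.4 and 8.80 FPKM at 24 hours in WT and 4.07, 4.28 and 4.88 FPKM at 0 hours and 8.86, 9.10 and 10.4 FPKM at 24 hours in β8ITG-cKO. Both genes had every 24 hour library above the 0 hour libraries of its genotype, by 2.49-fold and 2.73-fold in WT and by 2.04-fold and 2.14-fold in β8ITG-cKO. Lyar, a nucleolar zinc finger protein, had 7.53, 10.7 and 7.47 FPKM at 0 hours and 23.4, 24.3 and 20.1 FPKM at 24 hours in WT and 9.08, 6.58 and 8.39 FPKM at 0 hours and 22.5, 25.5 and 26.4 FPKM at 24 hours in β8ITG-cKO. It was among the 5 members, with Myc, Pes1, Wdr74 and Rrp1b, whose fold was larger in β8ITG-cKO, at 3.09 (log2 change 1.52, SE 0.13, adjusted p = 9.96e-05) compared with 2.64 in WT (log2 change 1.31, SE 0.17, adjusted p = 0.00197), and its 24 hour libraries overlapped between the genotypes. Ddx21, an RNA helicase, rose by 1.14 on the log2 scale in WT and by 0.79 in β8ITG-cKO.

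Small subunit processing genes act in the U3 snoRNP and the surrounding processome or in later maturation. Of the 11 tested, 10 passed in each genotype, all higher at 24 hours, with Imp4 short of the threshold in both (adjusted p = 0.0534 and 0.103, limma-trend). Heatr1, a large early processome protein, had 1.22, 1.79 and 2.42 FPKM at 0 hours and 6.81, 8.67 and 4.80 FPKM at 24 hours in WT and 1.56, 3.02 and 2.503 FPKM at 0 hours and 4.96, 4.99 and 5.93 FPKM at 24 hours in β8ITG-cKO. Rrp9, which binds the U3 snoRNA, had 3.68, 2.82 and 5.01 FPKM at 0 hours and 14.2, 17.7 and 9.20 FPKM at 24 hours in WT and 4.06, 4.43 and 4.42 FPKM at 0 hours and 10.3, 12.01 and 10.998 FPKM at 24 hours in β8ITG-cKO. Bysl, needed late in small subunit maturation, had 3.70, 3.28 and 3.16 FPKM at 0 hours and 7.84, 9.25 and 6.34 FPKM at 24 hours in WT and 4.55, 5.15 and 5.14 FPKM at 0 hours and 6.80, 6.12 and 7.75 FPKM at 24 hours in β8ITG-cKO. For these 3 genes the 24 hour libraries lay above the 0 hour libraries throughout, and the β8ITG-cKO 0 hour libraries of Bysl were also above all WT 0 hour libraries. Heatr1 rose 3.74-fold in WT (log2 change 1.46, SE 0.24, adjusted p = 0.00454) and 2.24-fold in β8ITG-cKO (log2 change 0.93, SE 0.18, adjusted p = 0.00416). Rrp9 rose 3.57-fold in WT (log2 change 1.58, SE 0.26, adjusted p = 0.00446) and 2.58-fold in β8ITG-cKO (log2 change 1.19, SE 0.10, adjusted p = 0.000101). Bysl rose 2.31-fold in WT (log2 change 0.997, SE 0.17, adjusted p = 0.00483) and 1.39-fold in β8ITG-cKO (log2 change 0.40, SE 0.12, adjusted p = 0.023). Utp20, another processome protein, had the smallest adjusted p of the members in WT (log2 change 1.58, SE 0.15, adjusted p = 0.000646). The remaining genes that passed, Wdr43, Wdr75, Nop14, Noc4l, Tsr1 and Ddx10, changed by 0.77 to 1.15 in WT and by 0.46 to 0.82 in β8ITG-cKO on the log2 scale. Rrp12 had 0.05, 0.07 and 0.12 FPKM at 0 hours and 0.20, 0.27 and 0.12 FPKM at 24 hours in WT and 0.07, 0.06 and 0.09 FPKM at 0 hours and 0.17, 0.18 and 0.13 FPKM at 24 hours in β8ITG-cKO, levels too low to be tested.

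Of the 16 large subunit processing genes, 13 passed in WT and 14 in β8ITG-cKO, all higher at 24 hours. Noc2l, a nucleolar complex protein, had 9.62, 11.7 and 9.70 FPKM at 0 hours and 36.6, 48.1 and 27.4 FPKM at 24 hours in WT and 11.4, 11.7 and 13.96 FPKM at 0 hours and 26.2, 30.8 and 27.8 FPKM at 24 hours in β8ITG-cKO. Ftsj3, a methyltransferase of the ribosomal RNA precursor, had 7.37, 6.76 and 8.38 FPKM at 0 hours and 24.2, 33.8 and 22.8 FPKM at 24 hours in WT and 8.44, 12.05 and 10.8 FPKM at 0 hours and 17.6, 18.5 and 19.2 FPKM at 24 hours in β8ITG-cKO. Grwd1, a chaperone of a ribosomal protein, had 2.49, 2.86 and 2.99 FPKM at 0 hours and 11.3, 14.5 and 7.07 FPKM at 24 hours in WT and 3.61, 3.42 and 3.35 FPKM at 0 hours and 7.15, 8.39 and 7.90 FPKM at 24 hours in β8ITG-cKO. All 3 genes rose without overlap in both genotypes, and WT 24 hour replicate 2 was the highest library for each. Noc2l rose 3.62-fold in WT (log2 change 1.73, SE 0.21, adjusted p = 0.00146) and 2.28-fold in β8ITG-cKO (log2 change 1.13, SE 0.11, adjusted p = 0.000182). Ftsj3 rose 3.59-fold in WT (log2 change 1.70, SE 0.18, adjusted p = 0.000836) and 1.77-fold in β8ITG-cKO (log2 change 0.78, SE 0.13, adjusted p = 0.00229). Grwd1 rose 3.94-fold in WT (log2 change 1.61, SE 0.24, adjusted p = 0.00305) and 2.26-fold in β8ITG-cKO (log2 change 0.98, SE 0.10, adjusted p = 0.000255).

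The PeBoW complex, made of Pes1, Bop1 and Wdr12, is needed to mature the large subunit RNAs. Pes1 had 9.15, 11.6 and 7.87 FPKM at 0 hours and 14.8, 17.7 and 12.8 FPKM at 24 hours in WT and 9.36, 8.82 and 9.17 FPKM at 0 hours and 14.6, 16.2 and 14.2 FPKM at 24 hours in β8ITG-cKO. Bop1 had 4.92, 3.84 and 3.47 FPKM at 0 hours and 10.8, 9.21 and 8.70 FPKM at 24 hours in WT and 5.78, 6.72 and 6.33 FPKM at 0 hours and 7.10, 9.27 and 7.89 FPKM at 24 hours in β8ITG-cKO. Wdr12 had 3.74, 3.46 and 3.15 FPKM at 0 hours and 7.16, 11.6 and 6.39 FPKM at 24 hours in WT and 3.87, 4.07 and 3.59 FPKM at 0 hours and 5.73, 6.37 and 7.75 FPKM at 24 hours in β8ITG-cKO. Each subunit was higher in all 24 hour libraries than in the 0 hour libraries of its genotype, but their sizes of change were unlike. Pes1 changed by nearly the same amount in WT (log2 change 0.62, SE 0.18, adjusted p = 0.0385) and in β8ITG-cKO (log2 change 0.66, SE 0.09, adjusted p = 0.00103). Wdr12 passed in both (log2 changes 1.04 and 0.65). Bop1 passed in WT (log2 change 1.06, SE 0.17, adjusted p = 0.00363) but not in β8ITG-cKO (log2 change 0.32, SE 0.12, adjusted p = 0.0651), where its 0 hour libraries already stood above every WT 0 hour library.

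Nop2, a methyltransferase of large subunit RNA, had 4.35, 2.84 and 4.09 FPKM at 0 hours and 12.2, 20.7 and 8.70 FPKM at 24 hours in WT and 3.84, 6.25 and 5.95 FPKM at 0 hours and 10.8, 11.98 and 9.94 FPKM at 24 hours in β8ITG-cKO. Nop16, a nucleolar protein encoded by a known MYC target, had 4.01, 3.71 and 4.16 FPKM at 0 hours and 10.6, 13.98 and 8.84 FPKM at 24 hours in WT and 5.42, 5.30 and 5.42 FPKM at 0 hours and 8.61, 8.26 and 9.89 FPKM at 24 hours in β8ITG-cKO. Rrs1, which helps to bring the 5S particle into the large subunit, had 4.97, 6.44 and 6.26 FPKM at 0 hours and 18.5, 25.3 and 14.3 FPKM at 24 hours in WT and 4.32, 5.92 and 6.15 FPKM at 0 hours and 14.4, 14.6 and 15.5 FPKM at 24 hours in β8ITG-cKO. All 3 were higher in every 24 hour library than at 0 hours in the same genotype, and WT replicate 2 was again the highest. Nop2 rose 3.69-fold in WT (log2 change 1.58, SE 0.29, adjusted p = 0.00705) and 2.04-fold in β8ITG-cKO (log2 change 0.93, SE 0.17, adjusted p = 0.00311). Nop16 rose 2.81-fold in WT (log2 change 1.27, SE 0.18, adjusted p = 0.00264) and 1.66-fold in β8ITG-cKO (log2 change 0.63, SE 0.10, adjusted p = 0.00192). Rrs1 rose 3.29-fold in WT (log2 change 1.54, SE 0.21, adjusted p = 0.00243) and 2.72-fold in β8ITG-cKO (log2 change 1.31, SE 0.13, adjusted p = 0.000205). Noc3l, Ebna1bp2, Mrto4 and Nle1 passed in both genotypes, with log2 changes of 1.03 to 1.31 in WT and 0.48 to 0.86 in β8ITG-cKO. Nip7 passed in neither (0.47 and 0.18). Wdr74 and Rrp1b, which passed in β8ITG-cKO alone, changed by 0.70 and 0.17 in WT and by 0.65 and 0.44 in β8ITG-cKO, and the difference between the genotypes in these changes did not pass the test for either gene (adjusted p = 0.958 and 0.408, limma-trend). Wdr74 passed although 1 of its β8ITG-cKO 24 hour libraries, at 4.92 FPKM, lay within the 0 hour range.

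**Figure D2:**
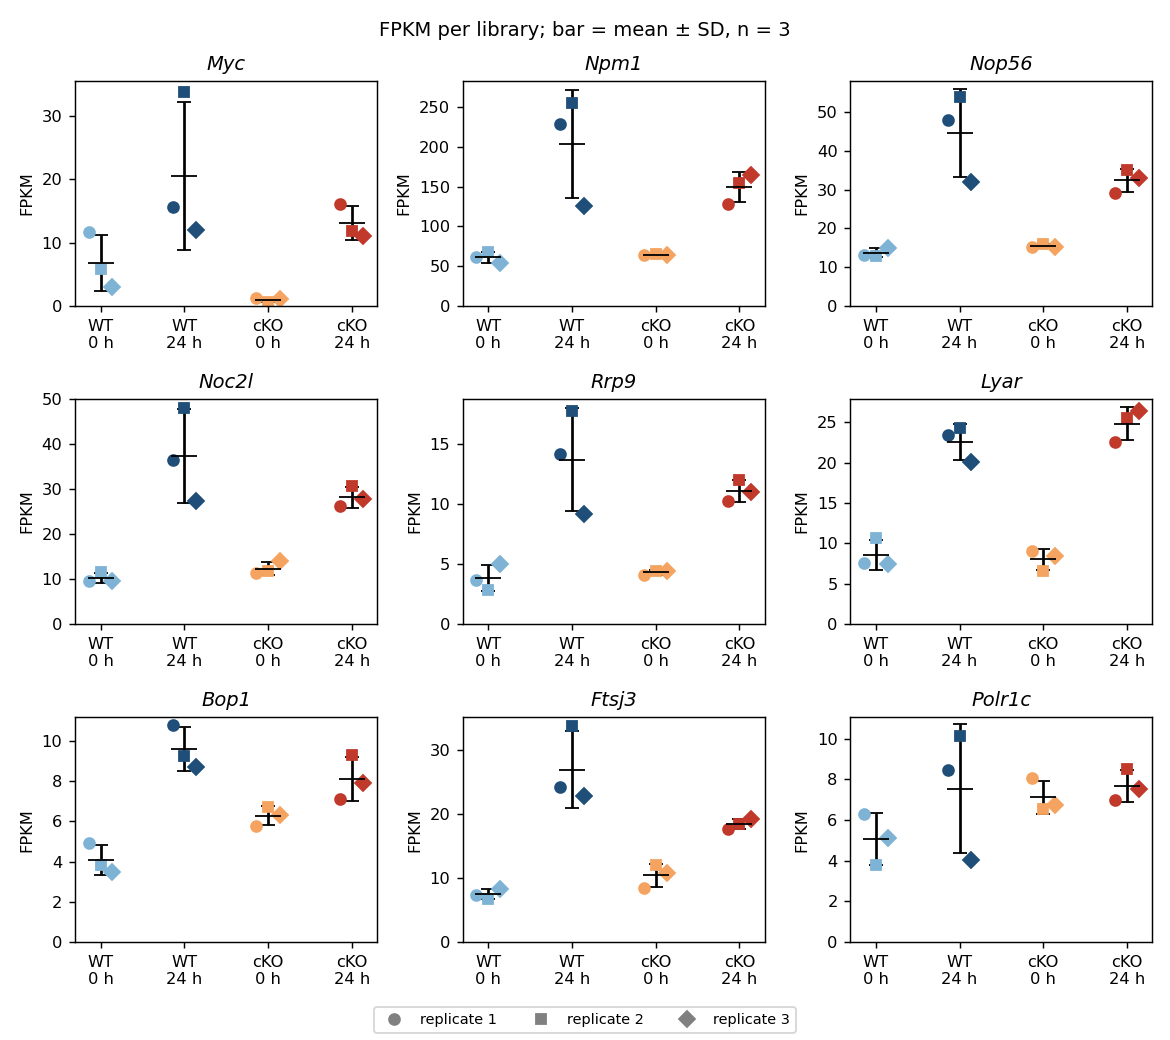
FPKM of 9 genes in each library (points, with the shape giving the replicate), by genotype and hours PCS, with the group mean and SD as bars (n = 3 libraries). Npm1, Nop56, Noc2l, Rrp9, Lyar and Ftsj3 rise without overlap in both genotypes, Myc starts lowest in β8ITG-cKO at 0 h, Bop1 starts higher there, and Polr1c overlaps between the times.

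Further genes of the same pathway were listed by role, with earlier results of these data known. Of 110 other biogenesis genes tested, 61 were higher and 0 lower in WT at 24 hours PCS and 75 were higher and 0 lower in β8ITG-cKO, with median log2 changes of 0.65 and 0.48, compared with 20.9% and 35.4% of all genes higher. The WT count was 33 without WT 0 hour replicate 1 (12% of all genes), 39 without WT 0 hour replicate 3 or WT 24 hour replicate 2 (13.4% and 12.9%) and 76 without WT 24 hour replicate 3 (24.7%). In β8ITG-cKO it was 62 to 68 on leaving out single libraries (28.7% to 32.4% of all genes). Rescaled to the same median, these counts were 45 higher and 1 lower in WT (14.4% of all genes higher) and 36 higher and 3 lower in β8ITG-cKO (21.3%). Within RNA polymerase I and its factors, 3 of 12 were higher in WT (25%, near the 20.9% of all genes) and 7 of 12 in β8ITG-cKO (58.3%). Cd3eap, a polymerase subunit, went from 4.58 ± 0.565 to 13.98 ± 3.75 FPKM in WT (SD, n = 3). Small subunit processing genes were higher for 28 of 42 in WT (66.7%) and 30 of 42 in β8ITG-cKO (71.4%), led in both by Wdr46, a processome protein, with log2 changes of 1.77 (SE 0.29) and 1.13 (SE 0.20). For the large subunit the counts were 24 of 41 (58.5%) and 31 of 41 (75.6%). Eif6, which keeps new large subunits from joining too early, rose from 19.5 ± 0.354 to 53.1 ± 11.2 FPKM in WT and from 14.9 ± 0.721 to 41.5 ± 1.21 FPKM in β8ITG-cKO (SD, n = 3). Other snoRNP and nucleolar genes were higher for 6 of 15 (40%) and 7 of 15 (46.7%), and Tcof1, a nucleolar cofactor of ribosomal DNA transcription, was among the 3 largest rises of these in both (log2 changes 1.68 and 1.01). Of 9 RNAs that host snoRNAs, 2 were higher and 1 was lower in WT, and 2 were higher and 0 lower in β8ITG-cKO (22.2% higher in each).

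Few transcripts of the ribosomal proteins themselves passed the test. Of the 79 cytosolic ribosomal protein genes tested in WT, 13 were higher and 0 lower (median log2 change 0.33), and of the 78 tested in β8ITG-cKO, 7 were higher and 0 lower (median 0.15). These shares, 16.5% and 8.97%, stand beside 20.9% and 35.4% of all genes. The WT count rested on single libraries. It was 22 without WT 24 hour replicate 3 (27.8%, compared with 24.7% of all genes). The count was 5 without WT 0 hour replicate 2, 1 without WT 0 hour replicate 3 or WT 24 hour replicate 1 or 2, and 0 without WT 0 hour replicate 1. In those fits 12% to 15.8% of all genes were higher. In β8ITG-cKO the count was 5 to 7 on leaving out single libraries, where 28.7% to 32.4% of all genes were higher. Rescaled to the same median they were 4 higher and 0 lower in WT and 2 higher and 7 lower in β8ITG-cKO. Of all genes on that scale, 14.4% were higher and 2444 of 15232 lower in WT. In β8ITG-cKO 21.3% were higher and 3005 of 15135 lower. Rpsa rose from 25.2 ± 3.55 to 49.7 ± 15.4 FPKM in WT (SD, n = 3), which was among the 3 largest changes of the list. Levels differed widely within this list, with WT 0 hour means of 1.92 FPKM for Rpl12 and 126.6 FPKM for Rack1. The log2(FPKM + 1) scale understates changes of low genes such as Rpl12. The small counts therefore do not show that these transcripts stayed level.

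Among 9 other genes of the MYC network that were tested, 2 fell in both genotypes. Mycn, the paralog of Myc, fell from 8.79 ± 0.480 to 3.01 ± 0.546 FPKM in WT (log2 change -1.30, adjusted p = 0.00136, limma-trend) and from 21.5 ± 2.21 to 5.42 ± 0.771 FPKM in β8ITG-cKO (log2 change -1.81, adjusted p = 4.23e-05) (SD, n = 3). At 0 hours Mycn was higher in β8ITG-cKO than in WT by 1.20 on the log2 scale (adjusted p = 0.00257), where Myc was lower. Mxi1, an antagonist of MYC, fell in both genotypes, by 0.90 and by 0.40 on the log2 scale, and was higher in β8ITG-cKO than in WT at 24 hours. Mlx, a relative of MAX, rose in WT (log2 change 0.93), and Mga, a MAX partner, rose in β8ITG-cKO (log2 change 0.34). The others did not pass over time.

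**Figure D3:**
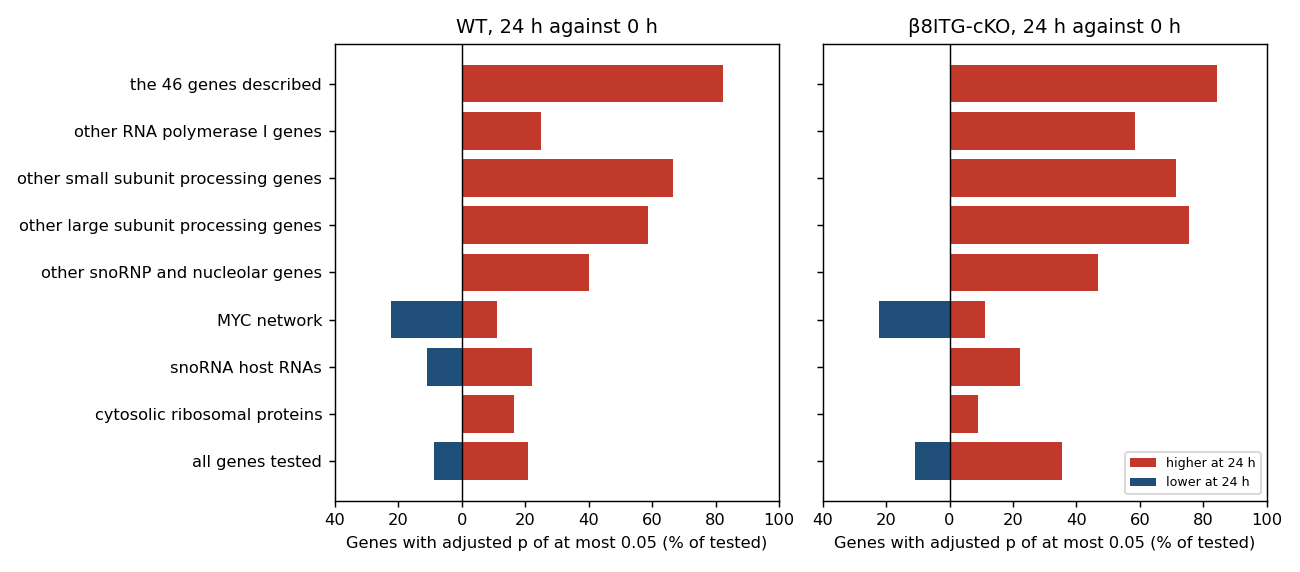
Percent of the tested genes of each list with an adjusted p of at most 0.05 and a higher (red, to the right) or lower (blue, to the left) level at 24 h than at 0 h, in WT and in β8ITG-cKO. The 46 genes described and the further processing genes stand above the bar of all genes tested in both panels, and the cytosolic ribosomal proteins below it.

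Between the genotypes at 24 hours PCS, no single member passed the test. Of the 45 tested, 0 were higher and 0 lower in β8ITG-cKO by limma-trend, compared with 5.64% of all genes higher and 0.644% lower, and 2 members, both lower, had an unadjusted p under 0.05 (6.2% of all genes). Nevertheless 41 of the 45 log2 differences were below 0 (all genes, 45.6%), and the median was -0.31 (all genes, 0.03). In 6 of the 45, Nhp2, Utp20, Ddx10, Noc3l, Ftsj3 and Nle1, all β8ITG-cKO libraries lay under all WT libraries (9% of all genes), and the reverse held in 0 (17.5% of all genes). The differences ran from -0.52 for Nhp2 to 0.16 for Rrp1b. Ftsj3, with 24.2, 33.8 and 22.8 FPKM in WT and 17.6, 18.5 and 19.2 FPKM in β8ITG-cKO, had the smallest p (log2 difference -0.50, SE 0.17, adjusted p = 0.141). Rescaled to the same median, Ftsj3 passed as lower in β8ITG-cKO (log2 difference -0.56, adjusted p = 0.0445) and was the 1 member that did so, and its adjusted p over the alternatives ran from 0.0445 to 0.339.

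The spread within the WT 24 hour group was shared by almost all members. Replicate 2 was the highest of the 3 libraries in 45 of 46 members, compared with 44.5% of all genes tested, and replicate 3 was the lowest in 44 (all genes, 48.2%). After rescaling to the same median these were 43 and 41 members, compared with 31.1% and 34.8% of all genes. The 10 highest genes of a library held 36.0%, 36.5% and 44.7% of summed FPKM in WT at 24 hours. In β8ITG-cKO at 24 hours they held 41.4%, 39.8% and 41.9%. What part these shares had in the spread was not tested. Relative to the WT 0 hour mean, the median member stood at 2.52, 3.39 and 1.89 in the WT 24 hour libraries, at 1.93, 1.85 and 2.07 in the β8ITG-cKO 24 hour libraries and at 1.04, 1.119 and 1.08 in the β8ITG-cKO 0 hour libraries. Their summed levels were 1033, 1304 and 729 FPKM in WT and 716, 789 and 819 FPKM in β8ITG-cKO at 24 hours. WT replicates 1 and 2 both lay above every β8ITG-cKO library in 38 of 46 members (all genes, 21.8%), whereas WT replicate 3 lay above all of them in 6 (all genes, 21.1%), within their range in 23 (30.8%) and below all of them in 17 (48%). Rescaling to the same median turned this picture, with WT replicate 3 above all β8ITG-cKO libraries in 22 members (all genes, 35.6%), within their range in 19 (29.8%) and below all of them in 5 (34.6%). On that scale the median member stood at 2.06, 2.62 and 1.70 in WT and at 1.60, 1.48 and 1.56 in β8ITG-cKO at 24 hours. Without WT replicate 3 the median difference was -0.50 and 1 member, Nop56, passed as lower in β8ITG-cKO (log2 difference -0.64, SE 0.13, adjusted p = 0.0398), and without WT replicate 2 the median was -0.12 and 0 passed. Retina markers moved with the genotype, at 74.7 to 141 summed FPKM in WT and 870 to 1018 in β8ITG-cKO. By the test 10 of 10 were higher in β8ITG-cKO. Neutrophil markers summed to 48.1 to 71.1 FPKM in WT and to 15.1 to 41.0 in β8ITG-cKO over 8 genes, with Ly6g at 0 in both. Of the 6 neutrophil markers tested 0 passed, with 5 log2 differences below 0 and 1 above. The corneal epithelium markers moved with WT replicate 3. What part any of these markers had in these values was not tested.

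**Figure D4:**
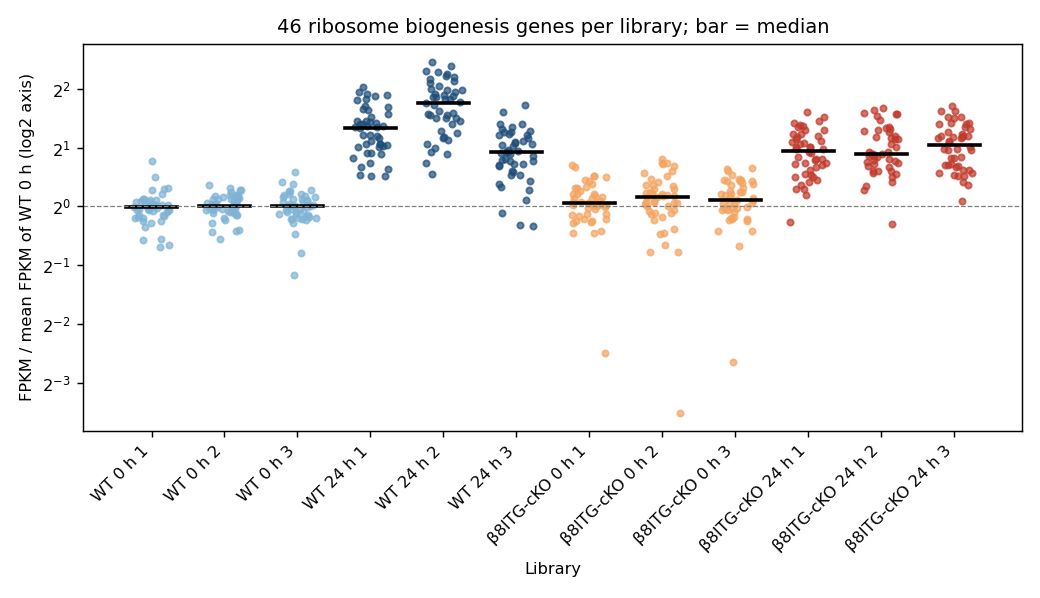
FPKM of each of the 46 genes (points) in each library, over its mean FPKM in the 3 WT 0 h libraries, on a log2 axis, with the median of the genes as a black bar. The WT 24 h medians are 2.52, 3.39 and 1.89, so in FPKM as deposited replicate 3 lies at the height of the β8ITG-cKO 24 h libraries (1.93, 1.85 and 2.07), whereas rescaled to the same median it lies above them (1.70 compared with 1.60, 1.48 and 1.56), and the lone low points in the β8ITG-cKO 0 h libraries are Myc.

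At 0 hours PCS, in capsules harvested straight after the fiber cells were removed, Myc differed between the genotypes by the test. It was 7.08-fold higher in WT, with 11.65, 5.83 and 3.03 FPKM compared with 1.21, 0.60 and 1.09 FPKM in β8ITG-cKO, and was the 1 member of 44 that passed (log2 difference -1.85, SE 0.37, adjusted p = 0.0293, limma-trend), compared with 2.75% of all genes lower. The groups did not overlap, but the call was lost on leaving out WT replicate 1 or 2 or any β8ITG-cKO library (adjusted p = 0.0552 to 0.1), and held without WT replicate 3 (adjusted p = 0.0133). With no filter on low levels it was 0.111. No member was higher in β8ITG-cKO by the test, compared with 4.18% of all genes, and 7 had an unadjusted p under 0.05 in that direction (13.9% of all genes). In 10 members all β8ITG-cKO libraries lay above all WT libraries (18% of all genes) and in 2, Myc and Ddx21, below them (12.8%). The 10 included Polr1a (log2 difference 0.44, SE 0.11, adjusted p = 0.0577), Bop1 (0.53, SE 0.14, adjusted p = 0.0647), Bysl (0.44, SE 0.12, adjusted p = 0.0676), Noc3l and Ftsj3. The median difference was 0.10, and 0.02 over all genes. The 6 iris and ciliary pigment markers summed to 83.95, 28.3 and 19.9 FPKM in WT and to 11.5 to 15.5 FPKM in β8ITG-cKO at 0 hours. Of the 5 tested 0 passed, and all 5 log2 differences were below 0. Retina markers passed for 0 of 10, and lens epithelium markers were higher in β8ITG-cKO for 3 of 8. What part any of these markers had in the level of Myc was not tested.

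The change over 24 hours was compared between the genotypes as a genotype by time interaction in a fit over all 12 libraries. A total of 2 members changed less in β8ITG-cKO than in WT, Ftsj3 (-0.92, SE 0.23, adjusted p = 0.0284) and Bop1 (-0.75, SE 0.20, adjusted p = 0.0371), and 0 changed more, compared with 2.56% of all genes lower and 6.83% higher. Ftsj3 went from 7.50 ± 0.820 to 26.9 ± 5.97 FPKM in WT and from 10.4 ± 1.83 to 18.4 ± 0.821 FPKM in β8ITG-cKO (SD, n = 3). Bop1 went from 4.08 ± 0.755 to 9.56 ± 1.09 FPKM in WT and from 6.28 ± 0.475 to 8.08 ± 1.10 FPKM in β8ITG-cKO (SD, n = 3). Both genes started higher and ended lower on average in β8ITG-cKO. Noc3l (-0.83, adjusted p = 0.0557) and Polr1a (-0.67, adjusted p = 0.0622) came next and did not pass. Myc had the opposite sign, at 1.36 (SE 0.57, adjusted p = 0.167). The interaction was below 0 for 41 of 45 members (all genes, 49.5%), with a median of -0.38 (all genes, 0.00), and 12 members had an unadjusted p under 0.05, all lower but Myc (9.51% of all genes lower, 14.7% higher). The number that passed depended on single libraries. It was 13 without WT 24 hour replicate 3, where 5.06% of all genes were lower. It was 0 without WT 0 hour replicate 2, β8ITG-cKO 0 hour replicate 2 or 3 or β8ITG-cKO 24 hour replicate 1 (1.08% to 1.97% of all genes lower). It was 1 without WT 0 hour replicate 1, WT 24 hour replicate 1 or 2, β8ITG-cKO 0 hour replicate 1 or β8ITG-cKO 24 hour replicate 2 or 3 (1.24% to 2.27%). Ftsj3 kept values from -1.05 to -0.75 and Bop1 from -0.86 to -0.66 over these fits, with adjusted p up to 0.0741 and 0.0913. Among the 110 other biogenesis genes 5 were lower in this test and 0 were higher. The lower count was 13 without WT 24 hour replicate 3, where 5.06% of all genes were lower. It was 1 to 3 on leaving out any other library (1.08% to 2.27% of all genes). The 5 included Wdr3 (-0.90) and Wdr36 (-0.84), which act in small subunit processing, and Cd3eap (-0.92).

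**Figure D5:**
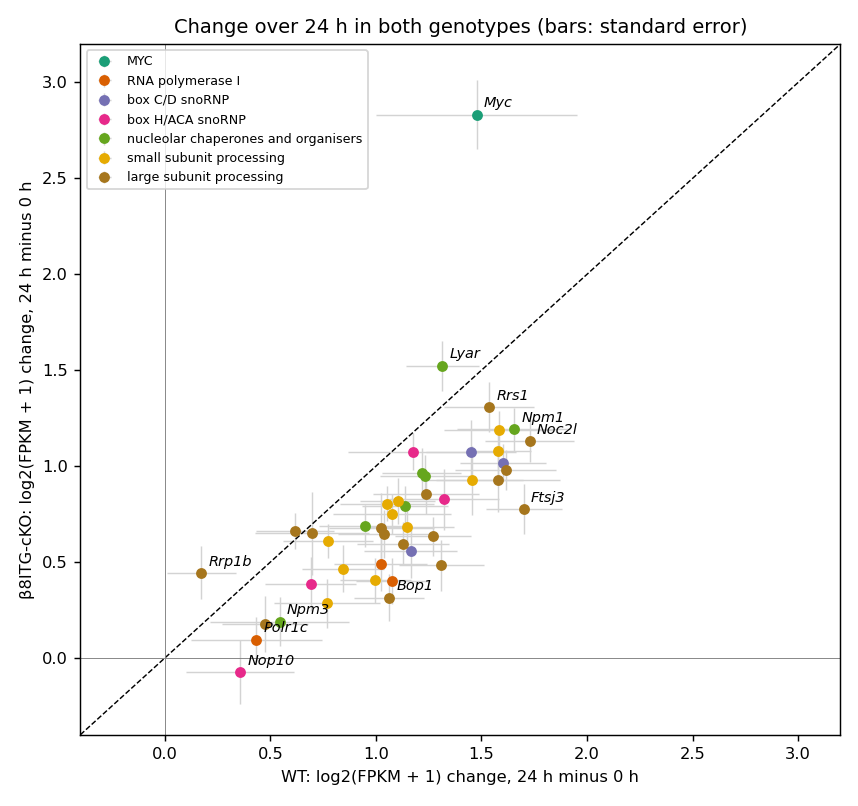
Log2(FPKM + 1) change from 0 h to 24 h in WT (horizontal) and in β8ITG-cKO (vertical) for the 45 genes tested, coloured by role, with standard errors as grey bars and the line of equal change dashed. All 45 points lie to the right of zero and most lie under the dashed line, Ftsj3 and Bop1 among them, and Myc (1.48 and 2.83) and Lyar (1.31 and 1.52) lie above it.

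The genes also shared features that had no part in their choice. A total of 7 of the 46 genes hold annotated snoRNA genes within their bounds (15.2%, compared with 1.18% of 21951 protein-coding genes in the GRCm38 annotation): Nop56 holds 5, Nop58 4, Ncl, Gnl3 and Wdr43 3 each, Tsr1 2 and Dkc1 1. All 7 passed in WT, whereas Dkc1 did not in β8ITG-cKO. The 46 genes lie on 17 chromosomes with at most 6 on any of them. Exons of 20 genes overlap a gene on the other strand, such as Idh3b at Nop56, Samd11 at Noc2l and Mroh1 at Bop1. The libraries were made with a stranded kit, but the strand setting of the counting is not given in the sources used here. For Bop1 the files report a locus on chromosome 15 from 76380466 to 76477269, which is wider than the annotated gene (76452989 to 76477277). Processed copies of Npm3 (1) and Mrto4 (2) have entries of their own in the files and could take reads from them. Only entries named with a member's symbol and -ps were looked for. Copies under other names, and those of the ribosomal protein genes, were not counted.

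MYC and its partner MAX bind the E-box CACGTG, a palindrome that reads alike on both strands, so the RefSeq promoter windows (GRCm38.p6, 250 bases before the start and 50 bases from it on) were searched for these letters. A window was found for 40 of the 46 genes, and 8 of them held the motif (20%, compared with 8.09% of 27025 genes). The sites are shown as examples of where such letters fall, 26 bases each, 5′ to 3′ on the strand of the gene, with the E-box in capitals.
Imp4, chr1:34439698-34439723, plus strand: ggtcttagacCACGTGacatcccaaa
Nop2, chr6:125131813-125131838, plus strand: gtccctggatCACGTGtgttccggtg
Grwd1, chr7:45830740-45830765, minus strand: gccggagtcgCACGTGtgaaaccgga
Utp20, chr10:88826765-88826790, minus strand: gcggcactaactaCACGTGaggaaaa
Pes1, chr11:3963967-3963992, plus strand: ctaggcagggCACGTGcgggaggaag
Tsr1, chr11:74898094-74898119, plus strand: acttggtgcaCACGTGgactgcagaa
Nle1, chr11:82908357-82908382, minus strand: ggttctcctcCACGTGgggacgcagg
Wdr43, chr17:71616222-71616247, plus strand: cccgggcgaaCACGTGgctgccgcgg
In Imp4 and Nop2 the motif begins at positions -121 and -60 from the start, and in the other 6 genes it begins 3 to 38 bases downstream of it. The 8 with it had a median log2 change of 1.09 in WT and 0.68 in β8ITG-cKO, and the 32 without it that were tested had 1.115 and 0.72. A match of letters shows no binding, and a window without them says only that they are not in those bases.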

How the data were processed

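The authors made stranded total RNA libraries with a low-input kit and sequenced read pairs. Per the submitters' processing notes, cutadapt 1.12, TopHat2 2.1.0 and Cuffdiff 2.2.1 were used with mm10 or GRCm38.p5. Cuffdiff gave the deposited FPKM for each library, in 4 tables of a pair of groups each. The FPKM of a library were the same in both tables that held it. The columns that hold the authors' own comparisons (a value for each group, a fold change, a p-value and a q-value) were not used. The depth behind a value is unknown without read counts, and no counting interval is given.

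Groups follow the labels, and the study describes the 3 libraries of a group as biological replicates. For each pair of groups limma-trend (limma 3.58.1, R 4.3.3) was run on log2(FPKM + 1), a scale that understates changes of low genes, for genes averaging 0.5 FPKM or more, with Benjamini-Hochberg adjustment over all genes tested. The interaction came from 1 fit over 12 libraries. The fit was tested on simulated data with known changes. Python 3.11.15, pandas 2.3.3, numpy 2.4.6 and matplotlib 3.10.9 made the summaries and figures. Alternatives were a pseudocount of 0.1, other filters, 2 rescalings (by the median or the upper quartile of genes averaging 2 FPKM or more), a joint fit of the 4 groups, a replicate block, the study's criteria and each library left out.

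The members and lists were chosen with earlier results of these data known. Values in every library are given for Myc, for representatives of each role and for up to 5 of the largest rises and falls among members that passed in a comparison. For other lists, genes named are among the 3 largest rises and 3 largest falls that passed. Members that stand beside a count outside this rule were picked with their values known. Promoter windows are from RefSeq (GRCm38.p6) and snoRNA positions from the GENCODE GRCm38 annotation.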

Additional observations from a re-analysis of the deposited data

Results flagged for a closer look

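By a test of the difference itself, the change over 24 hours PCS differed between the genotypes for 2 of 45 members. Over all genes tested, 2.56% were lower and 6.83% higher in this test. Ftsj3, a methyltransferase that acts on the ribosomal RNA precursor, changed less in β8ITG-cKO than in WT by -0.92 on the log2 scale (adjusted p = 0.0284, limma-trend). Bop1, a PeBoW subunit, changed less by -0.75 (adjusted p = 0.0371). Both calls rested on single libraries, as adjusted p ran up to 0.0741 for Ftsj3 and 0.0913 for Bop1 on leaving 1 out (limma-trend). In both genes the β8ITG-cKO libraries at 0 hours lay at or above the WT libraries, and the WT mean at 24 hours was the higher one. Exons of Bop1 overlap Mroh1 on the other strand, and what that adds to its level was not tested.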

How the results depend on the processing

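Over time, the counts of members higher at 24 hours PCS stayed within 1.5 times of 37 in WT (31 to 42 on leaving out single libraries) and of 38 in β8ITG-cKO (31 to 36), except that the study's criteria left 16 in β8ITG-cKO, and 0 members were lower under any alternative run. Over the fits with 1 library left out, 12% to 24.7% of all genes were higher in WT and 28.7% to 32.4% in β8ITG-cKO. Between the genotypes at 24 hours, 1 member was lower in β8ITG-cKO after rescaling to the same median and 0 to 1 on leaving out single libraries. At 0 hours, 1 was higher with a mean of at least 2 FPKM, with either rescaling and in 1 fit over all libraries, and the count of lower members was 0 with no filter and 0 to 1 on leaving out single libraries. For the interaction the 2 lower members became 0 with no filter, 6 with either rescaling and 0 to 13 on leaving out single libraries. The share of all genes lower in it was 2.56% in the main fit and 1.08% to 5.06% on leaving out single libraries. The cause of these shifts was not tested.

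Libraries with the same replicate number in a pair of groups showed little tendency to depart from their group means together. Correlations of these departures over genes ran from -0.22 to 0.08. With the number as a replicate block, 38 members were higher in WT and 34 in β8ITG-cKO, 0 passed between the genotypes at 24 hours, 1 was lower and 0 were higher at 0 hours, and 1 was lower and 0 were higher in the interaction.

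In β8ITG-cKO over time, changes that had not passed turned sign for Polr1c (-0.17 rescaled to the same median, -0.11 to the same upper quartile), Npm3 (-0.082 and -0.019), Nip7 (-0.038 rescaled to the same median) and Nop10 (0.11 without β8ITG-cKO 24 hour replicate 2). Levels near or under 1 FPKM, such as those of Rrp1b, are limited by the pseudocount, and Rrp12 was too low to be tested.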
